A study of Mus musculus with 12 samples.

Results

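Immediate early genes are the genes a cell transcribes first, within minutes and without new protein synthesis, when a growth factor, a cytokine or stress activates its kinase cascades. Several encode transcription factors. Fos and Jun proteins pair into AP-1, which switches on later genes, and other members shut the response off again. In single-cell work they are also watched because enzymatic dissociation of a tissue can induce them. The genes followed here are 10 of the 32285 genes in the deposited matrices: Fos, Fosb, Jun, Junb, Atf3, Egr1, Ier2, Dusp1, Zfp36 and Ccn1. They were taken by name, with no threshold on their values but with earlier results of these data known. Each matched 1 row by symbol. All 10 passed the filter on low counts in every comparison below.

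The cells came from mouse tumours of lines the labels name SCC35, within a series on the rejection of melanoma. Lines 15 and 18 are the controls of a Mif knockout (KO), and lines 19 and 24 are labelled as KO. Mif encodes a secreted cytokine. Strain, age, the way the KO was made and whether a line is 1 clone are not stated in the sources used here. Tumours were dissociated, marked with hashtag antibodies that carry a DNA barcode, and sorted for live cells. In the deposited sheet every hashtag has its line, its day (0, 6, 10 or 16) and a replicate letter. Day 0 is not described further, and whether those cells went through the same dissociation is not stated. Each line had a library of its own with all 4 days, and 2 mixed libraries pooled tumours of several lines on days 6, 10 and 16. The 4 lines gave 42 usable hashtags, 7 of them on day 0 and 35 on later days, and 3 further hashtags called WT on the sheet entered no test because no label gives them a group.

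The 6 libraries held between 151385933 and 239699029 gene UMIs (unique molecular identifiers, counted molecules), and 100459 cells were assigned to a hashtag. Cells were classed by markers. The line compartment, meant to hold the cells of the line itself, was defined by few host markers, namely no Ptprc UMI and at most 1 marker of each host list. Of its cells in all libraries, 86.6% carried 1 marker of at least one host list, and a stricter gate, used as an alternative, admitted only cells with none. It took 56291 cells of the 4 lines, and 9.24% of its cells in all libraries carried a UMI of any melanocytic marker, so the compartment is named by its gate and not as melanoma. Macrophage/monocyte-like cells, with at least 3 of 8 markers such as Csf1r and Adgre1, numbered 11931. On day 0 only 16 of 6376 assigned cells were macrophage/monocyte-like. Mif, the targeted gene, lay at 1764 to 3149 CPM (counts scaled to a common library total) in the line compartment of the 21 control hashtags and at 44.6 to 733 CPM in that of the 21 KO hashtags. Library pairs shared 570 to 1503 cell barcodes.

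The roles of the members differ. Fos and Fosb are AP-1 partners that cannot pair with themselves, Jun and Junb can pair with either kind, and Atf3 is a stress-induced factor of the same leucine zipper class. Egr1 is a zinc finger transcription factor, and Ier2 encodes a nuclear protein. Dusp1 encodes a phosphatase that inactivates MAP kinases, and Zfp36 encodes tristetraprolin, which marks AU-rich messenger RNAs, those of cytokines and of immediate early genes among them, for decay. Ccn1 encodes a secreted matrix-associated protein.

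The upstream sequences of 4 members are shown because their genes moved differently below: Fos, Dusp1 and Zfp36 rose from day 0 to later days, whereas Ccn1 did not. Each is the 250 bases before the RefSeq start site (GRCm38.p6), 5′ to 3′ on the gene's strand. Capitals mark the matches of a search for the cyclic AMP response element TGACGTCA, its core TGACG, the AP-1 site TGANTCA and the CArG box, bound by serum response factor, each on both strands, and for TATAAA on the gene's strand only. The core lies inside the full element, and on the other strand it reads CGTCA.
Fos, chr12:85473640-85473889, plus strand: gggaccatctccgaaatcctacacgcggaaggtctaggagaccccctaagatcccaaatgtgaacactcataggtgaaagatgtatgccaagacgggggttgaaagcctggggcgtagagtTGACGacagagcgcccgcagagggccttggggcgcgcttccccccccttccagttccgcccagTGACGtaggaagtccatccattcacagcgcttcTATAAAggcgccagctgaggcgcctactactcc
Dusp1, chr17:26508473-26508722, minus strand: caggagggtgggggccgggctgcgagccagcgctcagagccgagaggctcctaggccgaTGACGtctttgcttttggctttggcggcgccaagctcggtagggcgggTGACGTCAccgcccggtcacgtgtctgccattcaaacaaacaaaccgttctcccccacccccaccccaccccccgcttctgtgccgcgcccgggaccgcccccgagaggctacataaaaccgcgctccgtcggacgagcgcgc
Zfp36, chr7:28379229-28379478, minus strand: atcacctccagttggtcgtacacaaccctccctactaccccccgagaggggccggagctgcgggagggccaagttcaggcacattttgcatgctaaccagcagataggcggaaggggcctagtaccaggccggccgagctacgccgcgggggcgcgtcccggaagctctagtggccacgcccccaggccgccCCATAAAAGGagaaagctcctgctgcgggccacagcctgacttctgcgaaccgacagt
Ccn1, chr3:145649986-145650235, minus strand: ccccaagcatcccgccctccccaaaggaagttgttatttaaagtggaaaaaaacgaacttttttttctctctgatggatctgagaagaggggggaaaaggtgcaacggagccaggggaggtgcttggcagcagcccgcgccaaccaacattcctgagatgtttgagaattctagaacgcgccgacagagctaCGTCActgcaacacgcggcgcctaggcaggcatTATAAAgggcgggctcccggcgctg
Of the 10 members, 8 were in the RefSeq table used. The core TGACG occurred in 6 of these 8 (Fos, Fosb, Junb, Atf3, Dusp1 and Ccn1), against 17.8% of 32851 start sites searched in the same way. In Fos it began 129 and 66 bases before the start, and in Ccn1 58 bases before it. The full element TGACGTCA was found in Dusp1 alone of the 8, 143 bases before the start, and in 1.55% of all start sites. Zfp36 alone of the 8 held a CArG box in this window, 58 bases before the start, against 1.47% of all start sites. TATAAA occurred in Fos and Ccn1 and in 7.59% of all start sites, and TGANTCA in none of the 8 and in 6.75% of all start sites. A match is a description of these letters and not a bound site.

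In the line compartment 9 members were higher in the tumours of days 6 to 16 than on day 0, by 1.24 to 2.98 on the log2 scale, and Ccn1 moved the other way. Values are CPM with library sizes scaled by TMM (trimmed mean of M-values), of counts summed over the cells of a hashtag, and the fits used edgeR's quasi-likelihood test with Benjamini-Hochberg adjustment over all genes and a threshold of 0.05, here on the 30 hashtags of the 4 own libraries with line as a block. Hashtags of 1 line share their cells' origin, so the p-values measure the spread between hashtags of these 4 lines.

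Among the AP-1 genes, Fos lay at 70.6, 340 and 355 CPM (lowest, median and highest of 7 day 0 hashtags) and at 343, 1234 and 2653 CPM in the 23 later hashtags of the same libraries. Its lowest later value came from line 18, whose own day 0 value was 229 CPM, so the groups overlapped slightly between lines but not within a line. Fos was higher by 2.39 ± 0.32 (log2 difference ± SE, adjusted p = 4.25e-07). Junb lay at 110, 178 and 383 CPM on day 0 and at 580, 1014 and 1858 CPM later, with no overlap, a log2 difference of 2.40 ± 0.16 (adjusted p = 2.63e-12). Fosb was at 12.8, 43.9 and 89.5 CPM on day 0 and at 40.6, 105 and 625.3 CPM later, a difference of 1.96 ± 0.20 (adjusted p = 3.55e-09). Jun changed the least of the AP-1 genes, from 228, 323 and 427 CPM to 356, 720 and 1399 CPM, a difference of 1.24 ± 0.17 (adjusted p = 8.10e-07). Atf3 was the most even on day 0, at 65.9 to 97.1 CPM, and lay at 202 to 795 CPM later, a difference of 2.26 ± 0.19 (adjusted p = 1.84e-10).

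Egr1 showed the largest difference of the 10 members. It stood at 14.4, 34.6 and 163 CPM on day 0 and at 117, 307 and 1292 CPM later, a log2 difference of 2.98 ± 0.33 (adjusted p = 1.95e-08). Its 2 highest day 0 values, 158 and 163 CPM, were both of KO line 24. Ier2 was at 58.0 to 110 CPM on day 0 and at 95.2 to 750 CPM later, a difference of 1.74 ± 0.23 (adjusted p = 3.01e-07). The feedback genes moved in the same direction as the factors: Dusp1 lay at 62.3 to 118 CPM on day 0 and at 208 to 1123 CPM later, a difference of 2.33 ± 0.26 (adjusted p = 3.12e-08), and the groups did not overlap. Zfp36 lay at 34.2 to 148 CPM and then at 131 to 1345 CPM, a difference of 2.62 ± 0.36 (adjusted p = 7.09e-07).

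Ccn1 was the exception. It was at 517, 657 and 762 CPM on day 0 and at 240, 347 and 867 CPM later, a log2 difference of -0.57 ± 0.22 (adjusted p = 0.0341). The decrease was uneven: by line, the later mean against the day 0 mean was -0.23 (line 15), -0.50 (18), -1.28 (19) and -0.02 (24). Without line 19 the difference was -0.22 and did not pass, with 1 sum per line it was -0.51 and did not pass, and under the stricter gate it was -0.35 and did not pass.

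Of the 12308 genes tested, 24.4% were called higher on later days and 23.4% lower, against 9 and 1 of the 10 members. The 9 members also had every later value above every day 0 value within each of the 4 lines, as did 6.26% of all genes tested. Line by line the size varied: for Egr1 the log2 ratio of means was 4.17 for line 15, 1.92 for line 18, 3.14 for line 19 and 2.61 for line 24, and for Zfp36 it was 4.05, 2.42, 2.08 and 2.23 in the same order. The test of whether this change differed between KO and control called none of the 10 members, although 31.7% of 13013 genes passed it; DESeq2 also called 0, and 1 member, Zfp36, had an unadjusted p under 0.05. Under the stricter gate Zfp36 was called lower in KO, and without line 18 Zfp36 and Junb were. Zfp36 came nearest, with a difference of -1.26 ± 0.60 between KO and control (adjusted p = 0.110), and the other 9 lay between -0.49 and 0.32 with SEs of 0.28 to 0.58. Over the fits without a line Zfp36 ran from -1.85 to -0.23, Egr1 from -1.27 to 0.94, Fos from -1.27 to 0.56 and Fosb from -0.09 to 1.11. In simulated data with the same means and library sizes this test found 53.5% of genes changed by 2-fold, against 90% for the change itself. The simulated spread followed the trend over all genes and not each gene's own, so what the test could find for these members was not measured.

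**Figure D1:**
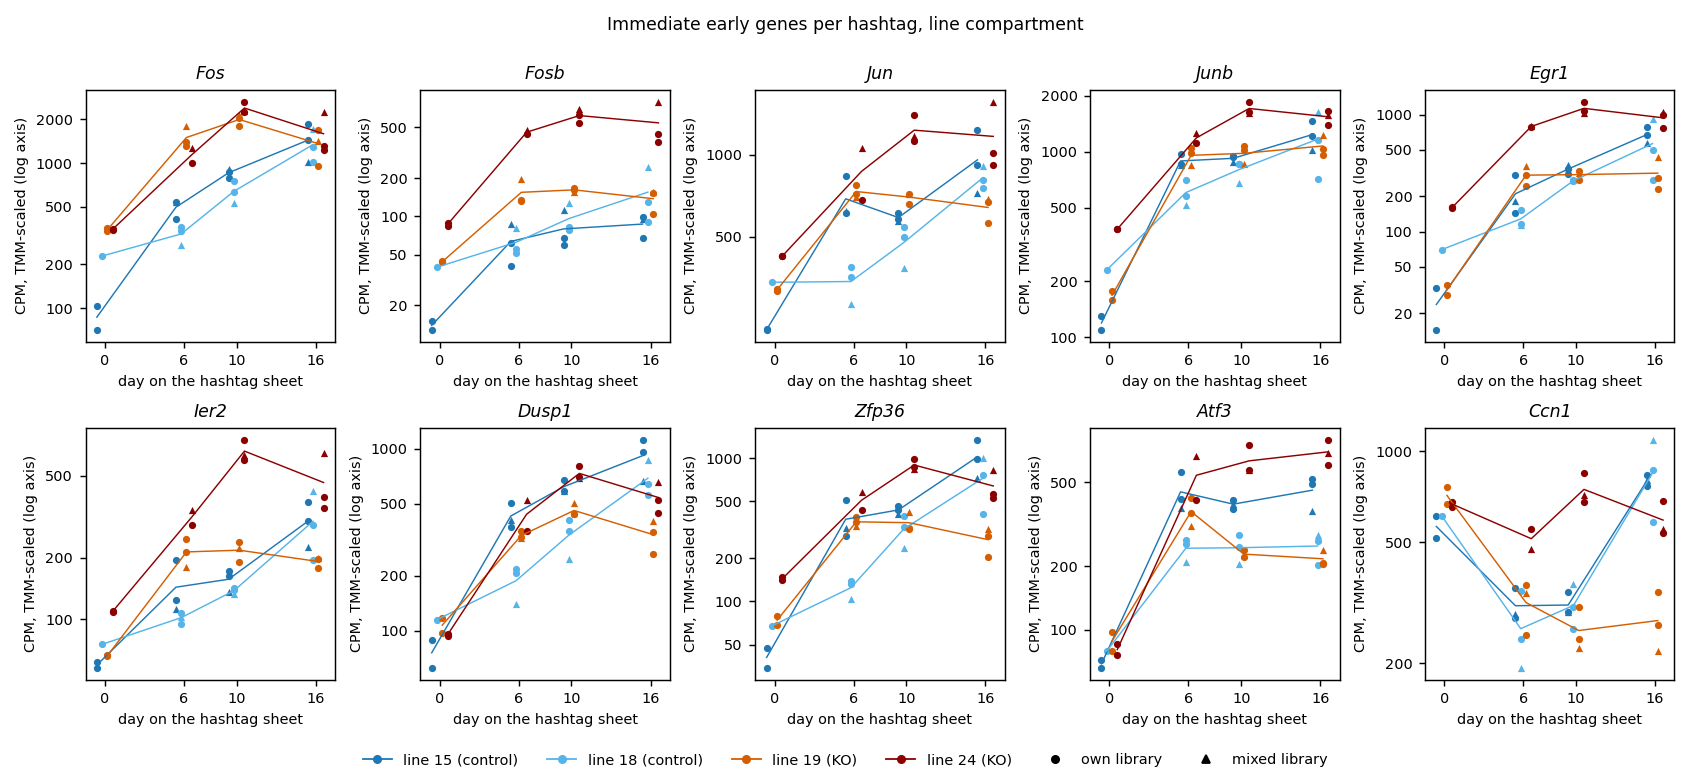
Level of each gene in the line compartment (vertical log axis, TMM-scaled CPM) by day on the hashtag sheet, 1 point per hashtag, circles for own and triangles for mixed libraries, coloured by line, with a line through each line's mean per day. In 9 panels levels rise from day 0, while Ccn1 is lower on day 6 and reaches 582 to 1092 CPM in lines 15 and 18 on day 16 and 679 to 848 CPM in line 24 on day 10.

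The day contrast carries several differences at once. Growth in the animal, dissociation of a tumour and time since day 0 cannot be told apart. Heat shock genes, another group known to respond to tissue handling, moved as follows: of 12 tested, 8 were called higher and 1 lower, beside 24.4% and 23.4% of all genes, with a median log2 difference of 0.58 against -0.01 over all genes. The largest were Hspa1a at 3.47 ± 0.64 (adjusted p = 5.62e-05), Hspa1b at 2.83 ± 0.29 and Dnajb1 at 1.99 ± 0.26, all stress-inducible chaperone genes, of which Hspa1a and Hspa1b are near-identical copies whose counts may be split uncertainly. Their part in the result was not tested. The median depth of line compartment cells was 5172.5 to 15503 UMIs per day 0 hashtag and 1877.5 to 13449 per later one, and their median mitochondrial share was 2.08% to 3.26% on day 0 and 1.504% to 3.576% later.

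Macrophage transcripts were rare in the line compartment, which its gate favours, since it left out cells with a Ptprc UMI or more than 1 macrophage marker. For 5 macrophage genes outside the gate (Lyz2, Tyrobp, Fcer1g, Ctss and Cd74, chosen after their values were seen) the median level in the line compartment of later days was 0.567% to 1.29% of the macrophage/monocyte-like median, in unscaled CPM. On the same measure the 10 members had 46.2% (Zfp36) to 374% (Ccn1). The measure covers macrophages alone, and how far RNA of host cells adds to the members' levels was not tested. The summed level of the 8 gating macrophage markers in the line compartment was 2.19 to 16.2 CPM on day 0 and 5.24 to 96.1 CPM later, with none of the 8 at 0 throughout either set. Of the other host lists some were higher there on later days and some lower. The median summed level was 14.6 CPM on day 0 and 127.9 CPM later for keratinocyte markers, 109.7 and 250.1 CPM for endothelial markers, and 8.08 and 23.2 CPM for fibroblast markers. T cell markers were at 12.2 and 3.93 CPM and mural cell markers at 2.41 and 1.59 CPM. On day 0, 4 of the keratinocyte, 3 of the endothelial and none of the fibroblast markers were at 0 in all 7 hashtags, and later 1 keratinocyte marker was. In cells with no marker of any host list, the stricter gate, the same 9 members were called higher on later days.

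Shares of cells with a UMI were compared at equal depth. Each cell was thinned to 1000 UMIs, which left out 150 of 5147 line compartment cells of day 0 and 3213 of the later ones. The share of cells with a Junb UMI had a median of 14.5% over the 7 day 0 hashtags and of 54.1% over the 35 later ones (62.6% and 91.0% in the same cells unthinned). For Egr1 these shares were 3.76% and 23.1% (22.1% and 57.2% unthinned), and for Ccn1 39.3% and 22.8% (74.1% and 61.0% unthinned). Cells with UMIs of at least 3 different members made up at least 5% and at most 36.4% of a day 0 hashtag and 22.8% to 86.5% of a later one, and the highest day 0 values were those of line 24. In T cell-like cells of later days, thinned alike, the median share was 9.92% for Egr1 and 5.41% for Ccn1 over 28 hashtags (24.0% and 13.1% unthinned), and 64.0% for Junb. Transcription by the T cells themselves and free RNA cannot be told apart in these shares. Day 0 held too few host cells for such a value. The share that free RNA gives was therefore not measured on any day, and no test was made over cells.

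Other genes of the same pathways were counted from lists, beside 24.4% of all genes tested called higher and 23.4% lower. These lists too were chosen with earlier results of these data known. The list of other immediate early genes held 27, of which 26 were tested: 25 were called higher and 1 lower (median log2 difference 1.90), led by the transcription factor genes Egr2 at 3.79 ± 0.35 and Nr4a1 at 3.26 ± 0.23 and by Arc at 3.66 ± 0.42. Dual specificity phosphatase and Sprouty genes, which restrain MAP kinase signalling as Dusp1 does, were called higher in 9 of 11 and lower in 0, led by Dusp2 at 3.18 ± 0.29, Dusp5 at 2.45 ± 0.27 and Spry2 at 1.04 ± 0.15. Both relatives of Zfp36 were higher, Zfp36l1 by 1.14 ± 0.14 and Zfp36l2 by 0.37 ± 0.06. The kinases and factors upstream of the response moved little: 8 of 15 were called higher and 1 lower, with a median of 0.20, and the 3 largest were Elk3 at 0.55 ± 0.06, Mapk8 at 0.55 ± 0.08 and Mrtfb at -0.48 ± 0.12.

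Own and mixed libraries held different hashtags (letters A and B against C) of the same lines and days, captured as separate libraries, which asks how far the levels depend on the preparation. In the line compartment 1 of the 10 members differed between them, with line and day as blocks over 35 hashtags, against 6.28% of 11973 genes in either direction. That gene was Fosb, higher in mixed libraries by 0.56 ± 0.12 (adjusted p = 0.00306). In line 15 on day 6, for example, Fosb was at 40.6 and 62.2 CPM in the own library and at 87.9 CPM in the mixed library. The call was lost without line 15, with 1 sum per line and under a stricter marker gate, and against mixed library 2 alone. The other 9 members differed by -0.12 to 0.22 on the log2 scale with SEs of 0.09 to 0.21. Egr1 had the largest of these, 0.22 ± 0.17 (adjusted p = 0.506).

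In macrophage/monocyte-like cells none of the 10 passed, against 0.389% of 7959 genes, by edgeR and by DESeq2, and 1 member, Fosb, had an unadjusted p under 0.05. The 10 differences ran from -0.20 (Ier2, ± 0.12) to 0.26 (Fosb, ± 0.12). With another rule for assigning hashtags 346 genes were called there, Fosb and Egr1 among them. Both kinds of library held dissociated tumours and the mixed ones held no day 0 cells, so these differences do not bear on the contrast with day 0.

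**Figure D2:**
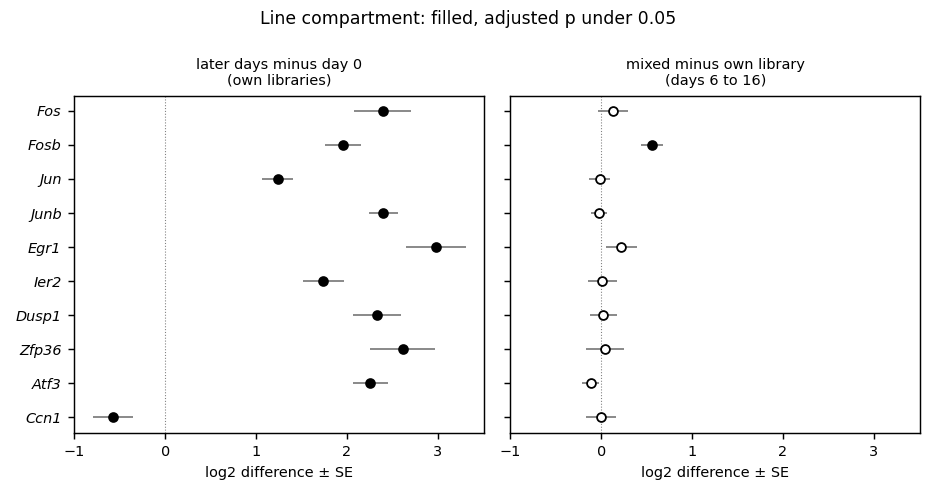
Log2 difference with its SE (horizontal axis) for each of the 10 genes in the line compartment, left between days 6 to 16 and day 0 and right between mixed and own libraries, filled where the adjusted p is under 0.05. On the left 9 genes lie between 1.24 and 2.98, and on the right only Fosb, at 0.56, is filled.

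Over all 42 hashtags with day as a block, 6 of the 10 members were called higher in the line compartment of KO lines and none lower, against 28.1% of 11729 genes called higher and 23.6% lower. Fosb showed the largest difference. On later days it lay at 40.6, 81.6 and 246 CPM (lowest, median and highest) in the 18 control hashtags and at 105, 196 and 799 CPM in the 17 KO hashtags, a log2 difference over all days of 1.92 ± 0.25 (adjusted p = 4.99e-08). The 8 later values of line 24 were 388 to 799 CPM, above every control value. Those of line 19 were 105 to 196 CPM, inside the control range, whose top of 246 CPM was 1 hashtag (line 18, day 16, mixed library). The next control value was 129 CPM. By day, line 19 lay above the controls on day 6 (133 to 196 against 40.6 to 87.9 CPM) and day 10 (156 to 167 against 60.15 to 127 CPM). On day 16 they overlapped. The share of all genes that separate so was not computed. Fos lay at 271, 772 and 1852 CPM in controls and at 959, 1698 and 2653 CPM in KO lines, a difference of 1.19 ± 0.16 (adjusted p = 1.05e-07), and its ranges overlapped.

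Egr1 was higher by 1.03 ± 0.26, Ier2 by 0.87 ± 0.19, Jun by 0.53 ± 0.13 and Junb by 0.51 ± 0.12. Of the listed other immediate early genes, 22 of 26 were called higher in KO and 1 lower over all days (median 0.73, against 0.02 over all genes), beside the 28.1% and 23.6% of all genes. Among the 10, Atf3 (0.39 ± 0.17, adjusted p = 0.0571), Zfp36 (0.37 ± 0.23), Ccn1 (0.15 ± 0.18) and Dusp1 (-0.01 ± 0.16) did not pass. Without line 24 only Fos at 1.20 and Fosb at 0.84 remained called, and Egr1 stood at -0.02, Ier2 at 0.24, Jun at 0.17 and Junb at 0.12. Over the fits without a line the highest values of these 4 were 1.70, 1.36, 0.81 and 0.83, and Fosb ran up to 2.57. The own library of line 24 also stood apart in depth and mitochondrial share, with medians of 3072 UMIs and 2.905% over its cells, against 4823 to 9121.5 UMIs and 1.595% to 2.01% in the other 3 own libraries. In cells of at least 3000 UMIs the 6 members and Atf3 were called higher in KO, and the part of the mitochondrial share was not tested. Without line 19, 9 members were called. With 1 sum per line, edgeR called 0 genes of any kind (1258 at an unadjusted p under 0.05), and in the mixed libraries alone none of the 10 passed. With library as a term Fos, Fosb and Jun passed. Each own library holds 1 line, so in that fit too the KO difference comes from the mixed libraries. Line is nested in group, so a difference between 2 lines and the other 2 and an effect of Mif cannot be told apart.

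Already on day 0 the lines differed. Fos was at 70.6, 103 and 229 CPM in the 3 control hashtags, the highest being line 18, and at 340 to 355 CPM in the 4 KO hashtags, so every KO value stood above every control value. The same held for Fosb (12.8 to 39.9 against 43.9 to 89.5 CPM), Zfp36 (34.2 to 67.4 against 68.3 to 148 CPM) and Ccn1 (517 to 612 against 657 to 762 CPM). The other members overlapped. The share of all genes that separate in this way was not computed. Egr1 on day 0 was at 158 and 163 CPM in line 24 and at 14.4 to 70.0 CPM in the other 3 lines, with line 19 at 28.8 and 34.6 CPM.

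In macrophage/monocyte-like cells of the same tumours 4 members were called higher in tumours of KO lines and 2 lower, against 17.6% of 7693 genes higher and 16.2% lower. Fosb lay at 104, 146 and 261 CPM in controls and at 190, 357 and 606 CPM in KO tumours, a log2 difference of 1.21 ± 0.15 (adjusted p = 2.30e-07). Egr1 was higher by 1.09 ± 0.18, Ccn1 by 0.70 ± 0.19 and Ier2 by 0.62 ± 0.14. In unscaled CPM, over later days, the medians of these 3 genes were 154, 90 and 127 in macrophage/monocyte-like cells. In T cell-like cells they were 124, 95.2 and 223. How much free RNA adds to these levels was not measured. Zfp36 was lower by -0.54 ± 0.13 and Dusp1 by -0.38 ± 0.11, the 2 members that dampen the response, while Fos, Jun, Junb and Atf3 did not pass. Without line 18 Fos, Jun and Atf3 were called lower too, as was Fos under the stricter gate, and without line 15 Junb was called higher. Without line 15 neither Zfp36 nor Dusp1 nor Ccn1 passed, without line 24 Fosb and Egr1 alone did, and with 1 sum per line no member passed. Over the fits without a line Zfp36 ran from -0.77 to -0.30, Dusp1 from -0.61 to -0.15, Egr1 from 0.57 to 1.52, Ccn1 from 0.26 to 1.04 and Ier2 from 0.27 to 0.91, and Ccn1 was also lost with the other hashtag call. Within mixed libraries alone Fosb and Egr1 were called, and with library as a term, where the KO difference also comes from the mixed libraries, Fosb alone.

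Over the 4 lines 9 members were higher on day 16 than on day 6 in the line compartment, by 0.36 to 0.87, against 21.1% of 12043 genes called higher and 23.9% lower. Atf3 was at -0.17 ± 0.11 and did not pass, and without line 24 it was called lower (-0.27). Among the other immediate early genes 8 of 26 were called higher and 6 lower (median 0.07, against -0.01 over all genes). By line, the log2 ratio of the day 16 to the day 6 mean of Fos was 1.53 for line 15, 2.04 for line 18, -0.14 for line 19 and 0.48 for line 24. The fits of this change, here and below, took each line within each library as a block. The day 16 hashtag of line 18 in mixed library 1 was alone in its block. It enters the means and ranges given but not the fitted differences. In line 19 the ratio was also below 0 for Fosb (-0.17), Jun (-0.19), Ier2 (-0.15), Zfp36 (-0.41) and Ccn1 (-0.20). It was above 0 there for Junb (0.17), Egr1 (0.06) and Dusp1 (0.02). Without line 15, 5 members passed, without line 18, 4 passed, and under the stricter gate 3 passed (Fos, Fosb and Egr1). Over the fits without a line Zfp36 ran from 0.48 to 1.30, Ccn1 from 0.39 to 1.05, Jun from 0.21 to 0.62 and Fosb from 0.18 to 0.58.

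The difference between groups in this change was then tested, a comparison added after the levels were seen. It called 8 of the 10 members lower in KO and none higher, against 6.13% of 12681 genes lower and 7.07% higher. Zfp36 had the largest difference, -1.85 ± 0.29 (adjusted p = 8.19e-05). In line 15 it was at 284, 512 and 326 CPM on day 6 and at 1345, 990 and 726 CPM on day 16, and in line 18 at 139, 131 and 104 CPM and then at 760, 407 and 999 CPM. In KO line 19 it was at 357, 385 and 335 CPM on day 6 and at 286, 203 and 320 CPM on day 16, and in line 24 at 437 and 578 CPM and then at 561, 527 and 827 CPM. In each control line every day 16 value lay above every day 6 value, and every day 16 value of line 19 lay below every day 6 value of that line. The share of all genes that separate in these ways was not computed.

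Fos followed the same course, with a difference of -1.50 ± 0.22 (adjusted p = 3.68e-05). In the 6 control hashtags of each day it was at 411 ± 110 CPM (mean ± SD) on day 6, 748 ± 144 CPM on day 10 and 1388 ± 354.5 CPM on day 16. In KO it was at 1356 ± 282 CPM (n = 5), 2195 ± 284 CPM (n = 6) and 1477 ± 445 CPM (n = 6). The KO tumours thus lay above all control tumours on days 6 and 10, when the ranges were 1008 to 1787 against 271 to 542 CPM and 1797 to 2653 against 530 to 911 CPM, and the ranges overlapped on day 16. How often other genes separate the groups on these days was not computed. Egr1 differed by -1.56 ± 0.23 (adjusted p = 4.94e-05), Ccn1 by -1.52 ± 0.22, Dusp1 by -1.13 ± 0.16, Ier2 by -1.05 ± 0.22, Fosb by -0.75 ± 0.21 and Jun by -0.66 ± 0.20. Junb (-0.28 ± 0.16) and Atf3 (-0.27 ± 0.22) did not pass. Over the fits without a line Junb ran from -0.34 to -0.13 and Atf3 from -0.71 to 0.43.

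Ccn1 rose in the controls between these days. It was at 285 ± 62.0 CPM on day 6 and 825 ± 165 CPM on day 16 in controls (n = 6 each), and at 396 ± 120 CPM (n = 5) and 435 ± 185 CPM (n = 6) in KO. Its day 16 values were 582 to 1092 CPM in controls, 220 to 343 CPM in line 19 and 538 to 686 CPM in line 24, so line 19 stood apart from the controls and line 24 overlapped them. In each of the 4 fits that left out a line, Fos, Egr1, Dusp1, Zfp36 and Ccn1 were called, with 5 to 9 members in all. In own libraries alone the same 8 members were called, and under the stricter marker gate 3 (Fos, Fosb and Ccn1).

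**Figure D3:**
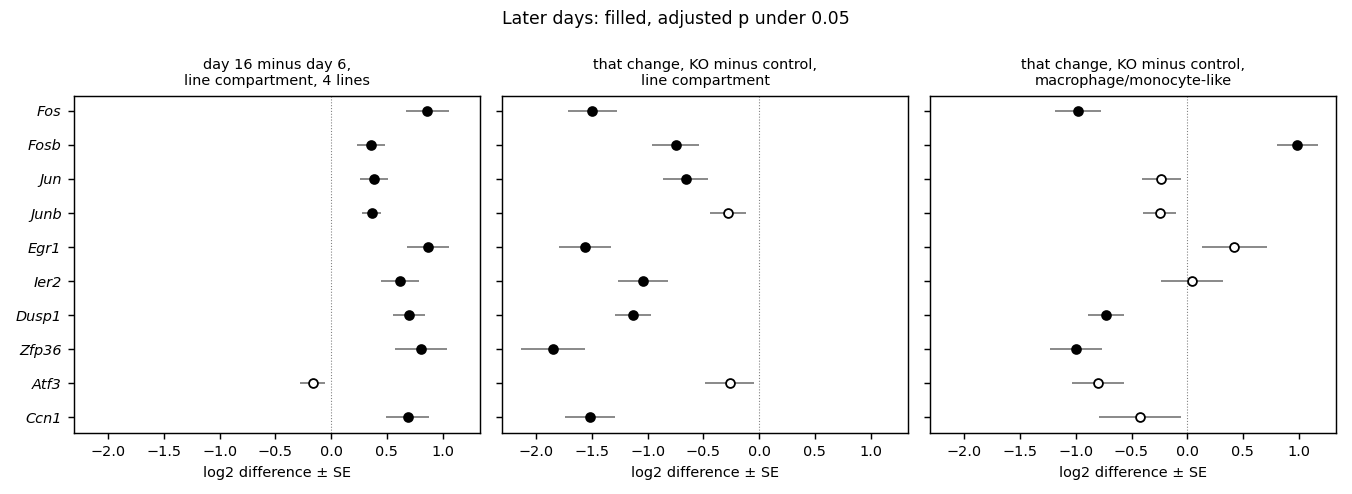
Log2 difference with its SE (horizontal axis) for each gene, from left to right the day 16 minus day 6 change over the 4 lines, the KO minus control difference in that change in the line compartment, and the same in macrophage/monocyte-like cells, filled where the adjusted p is under 0.05. In the middle panel all 10 points lie below 0 and 8 are filled, and in the right panel Fosb lies at 0.99, opposite to Fos, Dusp1 and Zfp36.

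Host macrophages of the same tumours showed the pattern for 3 genes, and the reverse for Fosb. The same added test called Fos (-0.98 ± 0.21, adjusted p = 0.0106), Zfp36 (-0.997 ± 0.23, adjusted p = 0.0183) and Dusp1 (-0.73 ± 0.16, adjusted p = 0.0140) lower in KO, against 0.422% of 8778 genes, and Fosb higher (0.99 ± 0.18, adjusted p = 0.00320), against 1.03%. In control tumours Fos in these cells went from 941 ± 270 CPM on day 6 to 2268 ± 520 CPM on day 16 (n = 6 each), and in KO tumours from 937 ± 107 (n = 5) to 1076 ± 312 CPM (n = 6). On day 16 the controls lay at 1566 to 2870 CPM and the KO tumours at 684 to 1449 CPM, without overlap. Zfp36 on day 16 likewise did not overlap, at 1175 to 2224 CPM in controls and 501 to 1059 CPM in KO. The share of all genes without overlap there was not computed. Fosb ran from 189 ± 56.3 to 148 ± 58.2 CPM in controls and from 266 ± 77.9 to 381 ± 99.6 CPM in KO.

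Of the 4 macrophage calls, that of Fosb stood in each fit without a line (0.96 to 1.05). The log2 differences of the other 3 kept their sign, Fos at -1.25 to -0.79, Zfp36 at -1.41 to -0.72 and Dusp1 at -0.93 to -0.52, but not their calls. Without line 15 all 4 stood and Atf3 was called lower as well. Without line 18 and without line 19 Fosb alone was called, without line 24 Fosb and Dusp1, and in own libraries alone none, while the line compartment calls of Fos, Zfp36 and Dusp1 stood in each of these. The own library of line 19 held 87 and 70 such cells on day 16. In simulated data, with the spread of the trend over all genes and not each gene's own, this test found 37% of genes changed by 2-fold. In the line compartment it found 78%.

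**Figure D4:**
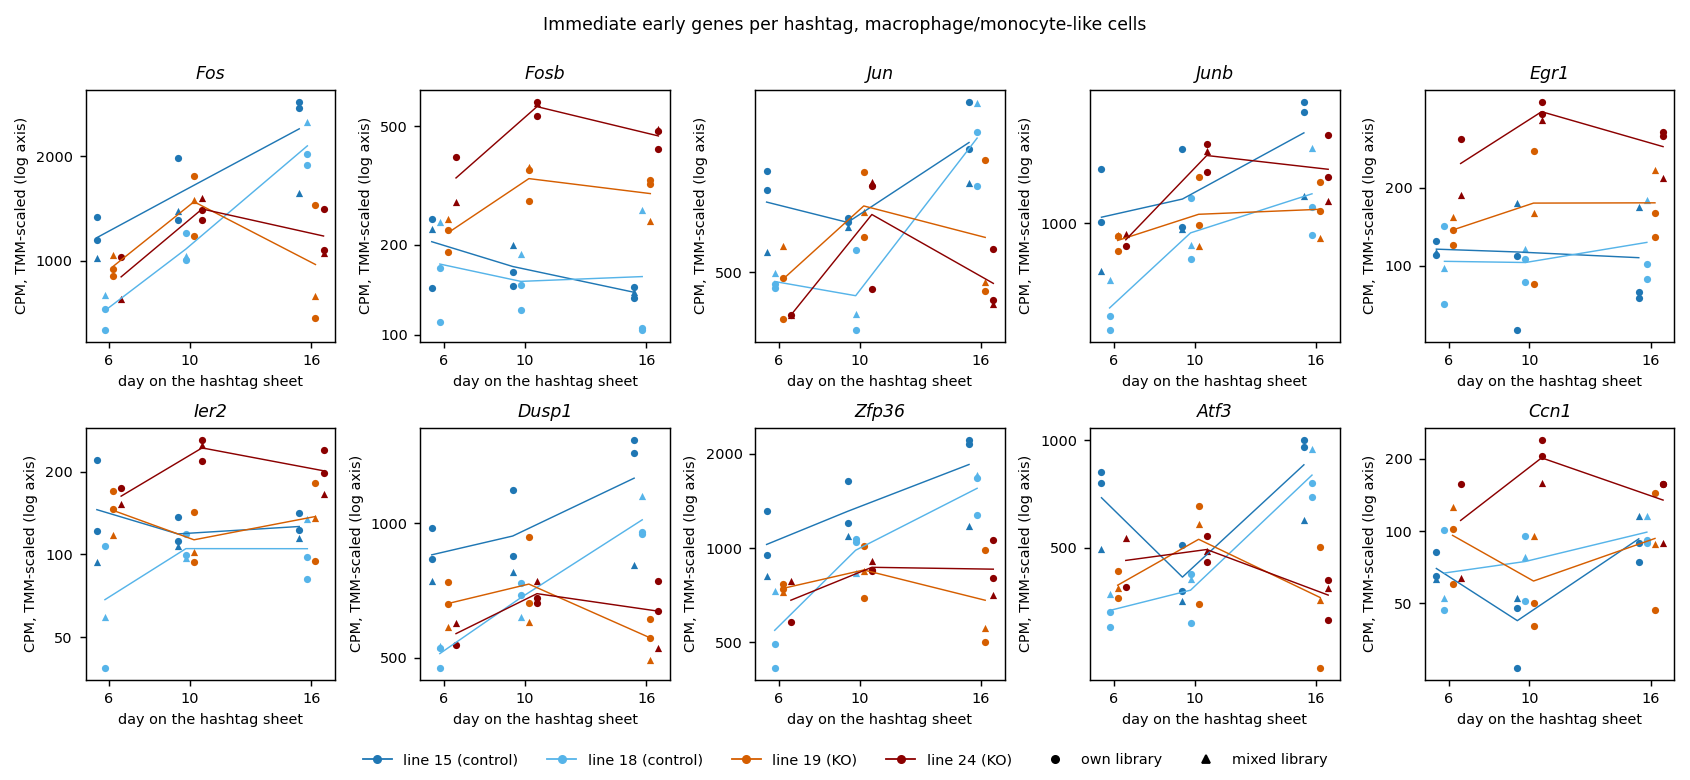
Level of each gene in macrophage/monocyte-like cells (vertical log axis, TMM-scaled CPM) by day, 1 point per hashtag, circles for own and triangles for mixed libraries, coloured by line, with a line through each line's mean per day. On day 16 the 6 control points of Fos lie at 1566 to 2870 CPM, above the 6 KO points at 684 to 1449 CPM.

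Macrophage/monocyte-like and line compartment cells of 1 hashtag went through the same dissociation, sort and library, so the classes were compared with the hashtag as a block over 35 hashtags. Macrophages had more Zfp36 (1.37 ± 0.11), Dusp1 (0.92 ± 0.08), Fosb (0.89 ± 0.12), Atf3 (0.67 ± 0.12), Fos (0.45 ± 0.13) and Junb (0.27 ± 0.05), all log2 differences past the threshold. They had less Ccn1 (-2.03 ± 0.11), Egr1 (-1.18 ± 0.13) and Ier2 (-0.57 ± 0.09), and Jun did not pass (-0.07 ± 0.09). Jun was called lower with no low-count filter (-0.22), under the stricter gate (-0.28) and without line 18 (-0.25), and higher without line 24 (0.16). So 6 and 3 of the 10 members were called, against 38.3% of 10576 genes higher and 42.6% lower. The inhibitors Zfp36 and Dusp1 were the 2 members with the highest differences. Other inhibitors did not all go this way. Of 11 other dual specificity phosphatase and Sprouty genes, 4 were called higher and 7 lower, with a median of -0.78. Both relatives of Zfp36 were called higher. With 1 sum per line Zfp36, Dusp1, Fosb and Atf3 stayed higher and Ccn1, Egr1 and Ier2 lower. Fos did not pass without line 15, without line 18 or without the hashtag block, and ran from 0.20 to 0.73 over the fits without a line. Its direction was not the same in both groups. In TMM-scaled CPM, each class scaled on its own, macrophage Fos was higher in every control hashtag (line 15, day 6, letter A: 1145 against 408.6). In line 19 it was lower in every hashtag (day 6, letter C: 1039 against 1787). In line 24 it was lower in most (day 10, letter B: 1398 against 2653). This difference between groups was not tested. Junb did not pass with no low-count filter or with the other hashtag call, and under the stricter marker gate Fosb was at -0.10.

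Over the 8 marker-gated classes with at least 20 cells in some hashtag of days 6 to 16, fibroblast-like cells had the highest median, in unscaled CPM, for Fos, Fosb, Jun, Egr1, Ier2, Dusp1, Zfp36 and Ccn1. Egr1 had a median of 1004 CPM over 32 fibroblast-like hashtags, 344 CPM in the line compartment (38 hashtags, WT included), 264 CPM in endothelial-like cells (10 hashtags) and 154 CPM in macrophage/monocyte-like cells. Jun had a median of 1857 CPM in fibroblast-like cells, and the next class, endothelial-like, was at 763 CPM. Atf3 was highest in macrophage/monocyte-like cells at 432 CPM, with the line compartment next at 366 CPM and fibroblast-like cells at 129 CPM. Junb varied least in this order, with 7 of the 8 classes at 795 to 1222 CPM and osteoclast-like cells at 460 CPM. Dendritic cell-like and NK cell-like values come from 4 and 5 hashtags only, and the classes were counted in different sets of hashtags, so these orders carry no test. The endothelial-like hashtags were mostly of line 19. In its own library 114 of 164 endothelial-like cells had exactly 3 endothelial markers, and line compartment cells had a median of 1. Median depths were 13046 and 9073 UMIs. Many fibroblast-like cells also stood at the minimum of 3 markers, from 52 of 125 in the own library of line 24 to 191 of 282 in that of line 18. Line compartment cells had a median of 0 fibroblast markers. Fibroblast-like cells were deeper there, with medians of 6081 against 3888 UMIs (line 24) and 5831.5 against 5062.5 (line 18). Whether either class holds cells of the line was not tested.

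**Figure D5:**
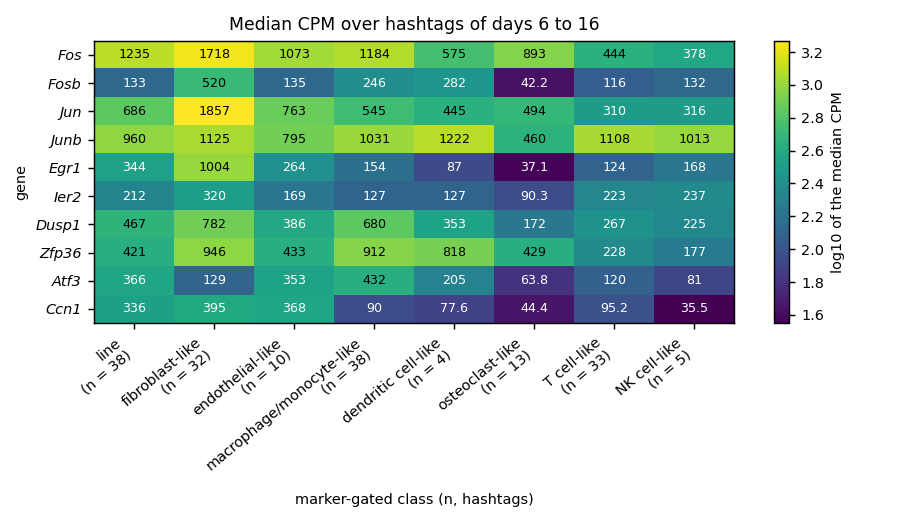
Median CPM over hashtags of days 6 to 16 (numbers in the cells, colour on a log10 scale) for each gene (rows) in each marker-gated class (columns, n hashtags). The fibroblast-like column holds the highest value of 8 of the 10 rows, with Junb and Atf3 as the exceptions.

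Across the 42 hashtags of the line compartment, the log2 CPM of each member was set against the mean z-scored level of all 10, which contains it. Pearson's r was 0.97 for Egr1, Jun and Ier2, 0.96 for Zfp36, 0.93 for Junb, 0.91 for Dusp1 and Fos, 0.87 for Atf3, 0.85 for Fosb and 0.26 for Ccn1. Of genes on none of the lists, the 5 nearest to that mean were Errfi1 (r = 0.96), which encodes a feedback inhibitor of the EGF receptor, the kinase gene Sik1 (0.92), the chemokine gene Cxcl1 (0.90), Lsp1 (0.90) and Pnrc1 (0.89). These 42 points share lines, libraries and the day 0 contrast, and the coefficients are a description.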

How the data were processed

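The authors deposited filtered single-cell matrices of whole-number gene and hashtag counts (UMIs) for 6 libraries. Cell Ranger 6.0.0 and the build mm10 are named in the submitters' processing notes, and a 10x 5′ kit in the labels' protocols. No normalization precedes these counts. Hashtags were called with HTODemux (Seurat 5.3.0), and doublets and unassigned cells were left out, as were 2 of 47 hashtags that took less than 0.1% of the hashtag counts. Kept cells had 300 or more detected genes and no more than 15% mitochondrial counts, which left 163866, of which 100459 were assigned. Classes needed at least 3 of 8 markers. Counts were summed per hashtag and class (at least 20 cells) and tested with edgeR 4.0.16 (filterByExpr, TMM, quasi-likelihood, Benjamini-Hochberg adjustment, threshold 0.05) over all genes, tested on simulated data with 200 changed genes. SEs are the log2 difference divided by the square root of F. DESeq2 1.42.0, RLE scaling, no filter, stricter and looser gates, another hashtag call, 1 sum per line, library subsets and leaving out each line were alternatives. The fits of day 16 against day 6 and of KO differences in a change were not run with 1 sum per line. All 10 members are named, with the 3 largest called genes of each of 5 lists and the 5 genes nearest to the members' mean. Members and lists were chosen with earlier results of these data known. The test of the day 16 minus day 6 change between groups and the fit on cells of at least 3000 UMIs were added after seeing the data. Upstream sequences came from RefSeq (GRCm38.p6). With 2 lines per group, p-values measure only the spread between hashtags, and whether same-line hashtags are separate animals is not stated.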

Additional observations from a re-analysis of the deposited data

Results flagged for a closer look

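In line 18, 2 values of the line compartment stood far from the other later-day values of the line, both from the day 16 hashtag in the mixed library: Fosb at 245.5 CPM and Egr1 at 919.3 CPM. In macrophage/monocyte-like cells the same held for Ier2 at 221.7 CPM in line 15 on day 6 (letter B). Each was the highest of its group and past Dixon's 95% critical value. In all, 90 groups of values were tested, and chance passes about 1 in 20.

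The change from day 6 to day 16 differed between KO and control in the line compartment, by edgeR's test of the difference itself, for Fos (-1.50), Fosb (-0.75), Jun (-0.66), Egr1 (-1.56), Ier2 (-1.05), Dusp1 (-1.13), Zfp36 (-1.85) and Ccn1 (-1.52), all log2 differences of KO minus control. In macrophage/monocyte-like cells it differed for Fos (-0.98), Dusp1 (-0.73) and Zfp36 (-0.997), and in the other direction for Fosb (0.99). This test was added after the levels were seen and was not run with 1 sum per line. Under the stricter marker gate only Fos, Fosb and Ccn1 kept their line compartment call. In own libraries alone no member was called in macrophage/monocyte-like cells. Fosb is the member for which the 2 compartments had opposite signs past the threshold; the difference between compartments was not tested.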

How the results depend on the processing

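The changes from day 0 of 9 members kept their direction and their call in each alternative run, and of 140 alternative values for that comparison 3, all of Ccn1, lost the call. For later days against day 0, edgeR called 5886 genes, against 2877 with the stricter marker gate, 1666 with 1 sum per line. For mixed against own libraries in the line compartment, edgeR called 752 genes, against 435 with no low-count filter, 1447 with the other hashtag call, 4 with the stricter marker gate, 1376 in cells of at least 3000 UMIs, 11 with 1 sum per line, 1809 against mixed library 1 alone, 31 against mixed library 2 alone, and 89 to 1503 when a line was left out. For the same in macrophage/monocyte-like cells, edgeR called 31 genes, against 71 by DESeq2, 233 with no low-count filter, 346 with the other hashtag call, 10 with the stricter marker gate, 3 with 1 sum per line, 49 against mixed library 1 alone, 8 against mixed library 2 alone, and 8 to 269 when a line was left out. For KO against control in the line compartment, edgeR called 6069 genes, against 1598 with the stricter marker gate, 0 with 1 sum per line, 146 in mixed libraries alone, 1618 with library as a term. For KO against control in macrophage/monocyte-like cells, edgeR called 2599 genes, against 11 with 1 sum per line, 340 in mixed libraries alone, 316 with library as a term, and 646 to 3007 when a line was left out. For macrophage/monocyte-like cells against the line compartment, edgeR called 8556 genes, against 5475 with the stricter marker gate. For the KO difference in the change from day 0, edgeR called 4131 genes, against 752 with the stricter marker gate, and 1477 to 3368 when a line was left out. For day 16 against day 6, edgeR called 5420 genes, against 1440 with the stricter marker gate. For the KO difference in the later change, line compartment, edgeR called 1674 genes, against 158 with the stricter marker gate, 1092 in own libraries alone, and 420 to 1405 when a line was left out. For the KO difference in the later change, macrophage/monocyte-like cells, edgeR called 127 genes, against 219 by DESeq2, 308 with no low-count filter, 82 with the other hashtag call, 61 with the stricter marker gate, 24 in own libraries alone, and 23 to 97 when a line was left out. With 1 sum per line KO against control in the line compartment had 1258 genes at an unadjusted p under 0.05.

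The log2 differences of single members that changed sign were these. For mixed against own libraries in the line compartment: against mixed library 2 alone Fos -0.0646, Jun 0.0034, Egr1 -0.0805, Dusp1 -0.16, Zfp36 -0.13, with the stricter marker gate Jun 0.0096, Junb 0.12, Atf3 0.0737, Ccn1 0.13, against mixed library 1 alone Junb 0.0533, Ccn1 0.10, with the other hashtag call Ier2 -0.0311, in cells of at least 3000 UMIs Ier2 -0.0024, with 1 sum per line Ccn1 0.0296, over the fits without a line Jun -0.12 to 0.0697, Junb -0.10 to 0.0214, Ier2 -0.12 to 0.17, Dusp1 -0.0569 to 0.12, Zfp36 -0.0279 to 0.19, Ccn1 -0.12 to 0.0308. For the same in macrophage/monocyte-like cells: with the other hashtag call Jun 0.0785, Junb 0.0429, Ier2 0.0357, Atf3 0.0929, against mixed library 2 alone Egr1 -0.28, Zfp36 0.0366, Atf3 0.0525, Ccn1 -0.62, with no low-count filter Atf3 0.0011, with the stricter cell filter Ccn1 -0.0109, with 1 sum per line Ccn1 -0.0015, over the fits without a line Fos -0.22 to 0.0331, Jun -0.0939 to 0.0467, Zfp36 -0.26 to 0.0249, Atf3 -0.15 to 0.19, Ccn1 -0.13 to 0.28. For KO against control in the line compartment: in mixed libraries alone Dusp1 0.23, with library as a term Dusp1 0.32, Ccn1 -0.15, with 1 sum per line Zfp36 -0.0255, over the fits without a line Egr1 -0.0208 to 1.70, Dusp1 -0.29 to 0.29, Zfp36 -0.18 to 0.85, Atf3 -0.27 to 0.81, Ccn1 -0.37 to 0.56. For KO against control in macrophage/monocyte-like cells: with 1 sum per line Junb -0.0328, over the fits without a line Junb -0.0819 to 0.26. For macrophage/monocyte-like cells against the line compartment: with the stricter marker gate Fosb -0.10, over the fits without a line Jun -0.25 to 0.16. For the KO difference in the change from day 0: with the stricter marker gate Fosb -0.13, Ier2 -0.17, with the other hashtag call Atf3 0.18, over the fits without a line Fos -1.27 to 0.56, Fosb -0.0943 to 1.11, Jun -0.60 to 0.50, Junb -0.84 to 0.50, Egr1 -1.27 to 0.94, Dusp1 -1.04 to 0.39, Atf3 -0.71 to 0.65, Ccn1 -0.93 to 0.36. For day 16 against day 6: over the fits without a line Atf3 -0.27 to 0.0880. For the KO difference in the later change, line compartment: with the stricter marker gate Atf3 0.41, over the fits without a line Atf3 -0.71 to 0.43. For the KO difference in the later change, macrophage/monocyte-like cells: with no low-count filter Ier2 -0.0058, with the other hashtag call Ccn1 0.18, over the fits without a line Ier2 -0.20 to 0.29.

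The cause of these moves was not tested. No paired analysis was possible by replicate number because KO and control share none: each line belongs to 1 group. The library was the block the 2 groups did share, in the mixed libraries, and is given above as a term. Some macrophage sums were shallow (70 macrophage/monocyte-like cells at the lowest), and how far this limits the macrophage comparisons was not tested. The 2 lines of each group limit the comparisons between KO and control.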

Other observations

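The 3 hashtags called WT on the sheet, all in mixed library 2, belong to no labelled group. In their line compartment Fos was at 642 CPM on day 6, 1086 CPM on day 10 and 1386 CPM on day 16. Fosb was at 210, 296 and 479 CPM, Egr1 at 457, 592 and 806 CPM, Zfp36 at 445, 479 and 852 CPM, and Ccn1 at 534, 778 and 1172 CPM on the same days. Each of these 5 genes was highest on day 16, with 1 hashtag per day and no replicate.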
